A study of Mus musculus with 24 samples.

Results

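Oligodendrocytes wrap axons of the central nervous system in myelin, and they arise from precursor cells that persist in the adult spinal cord. A list of 30 genes of this lineage was examined on 24 expression arrays. It holds 8 genes of the precursor stage (Olig1, Olig2, Sox10, Nkx2-2, Pdgfra, Gpr17, Bcas1 and Enpp6) and 22 genes of maturation and myelin (Nkx6-2, Myrf, Mbp, Mog, Mag, Mobp, Mal, Cnp, Cldn11, Ugt8a, Fa2h, Opalin, Ermn, Aspa, Gpr37, Trf, Enpp2, Tspan2, Sirt2, Ndrg1, Lims2 and Gsn). Each gene was read from the probe set, a group of short probes for 1 transcript, that names only this gene and has the highest mean log2 signal over the 12 arrays of its table. On the ependymal arrays, 26 of the 30 genes were measured (7 precursor and 19 myelin genes, with 44 probe sets) among 17097 genes in all, and Bcas1, Myrf, Enpp2 and Sirt2 were not analysed there. On the neurosphere arrays, 27 were measured (8 and 19, with 29 probe sets) among 22180 genes, and Trf, Lims2 and Enpp2 were not analysed there.

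The ependymal arrays held RNA from around the central canal, cut out by laser microdissection from the thoracic cord of CD1 mice aged 3 months. The 6 injured mice received a laminectomy and 4 needle insertions, and the 6 sham mice received the laminectomy alone, with tissue taken 3 days later. The needles were placed so as to spare the central canal itself, and each dissected region can hold cells beside the ependyma. The neurosphere arrays held RNA of cultures from the adult spinal cord of 4 mice, each sampled in 3 conditions. With EF cultures grew as spheres with the growth factors EGF and FGF2 and heparin. W/o EF cultures were dissociated, plated on poly-D-lysine and laminin and kept 3 days without the factors and heparin in 2% serum. Re EF cultures then lost the serum and regained EGF, FGF2 and heparin for 3 days. Here serum, attachment and the loss of factors changed together, so their parts cannot be told apart. The labels give passage 1 and 3 days, whereas the methods text gives a later passage and a longer time. A neurosphere number marks the same mouse in all conditions, whereas an ependymal number joins different mice.

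Precursors depend on the transcription factors OLIG1, OLIG2, SOX10 and NKX2-2, and they divide in response to PDGF through the receptor encoded by Pdgfra. As they leave the cell cycle they pass through a stage marked by Gpr17, Bcas1 and Enpp6, and the factor MYRF then switches on the genes of compact myelin such as Mbp, Mog and Mobp. Cells of this lineage are normally found in the grey and white matter around the central canal. In cultured spinal cord stem cells, EGF and FGF2 hold cells in division and their removal allows differentiation.

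In the ependymal region the 12 arrays fell into 3 sets by the distribution of their signals, namely replicates 1 and 2, 3 and 4, and 5 and 6 of both groups. The lower quartile of the log2 signal was 4.38 to 4.41, 4.11 to 4.18 and 3.96 to 4.02 in these sets, and the sources used here do not say what the sets stand for. The mean log2 signal of 12 ependymal markers was 8.82 to 9.21 per array in injured mice and 9.70 to 10.12 in sham mice. Of these 12 markers 9 were called lower, with a median difference of -0.94 log2 over the list. The groups overlapped for Foxj1, which encodes the regulator of motile cilia, with 9.26 to 10.43 in injured and 9.54 to 10.39 in sham mice. The neurosphere arrays w/o EF stood apart in signal distribution from those with EF and in re EF, with median log2 signals of 3.93, 3.94, 3.95 and 3.97 with EF (lowest to highest), 4.00, 4.01, 4.03 and 4.08 w/o EF and 3.94 to 3.95 in re EF, and this and the condition cannot be told apart. In neurospheres the mean of 8 stem cell markers was 8.60 to 8.70 with EF, 8.35 to 8.55 w/o EF and 8.31 to 8.49 in re EF. Markers of other cell types moved with injury on these arrays. The mean of 12 skeletal muscle markers was 5.00 to 8.09 in injured and 5.26 to 9.29 in sham mice, and the arrays of injured replicate 6 and sham replicates 3, 4 and 6 stood apart by it. The mean of 12 neuron markers was 6.82 to 9.06 in injured and 8.20 to 9.66 in sham mice, with 1 called lower. For 12 astrocyte markers it was 8.52 to 9.26 in injured and 8.02 to 8.65 in sham mice, with 3 called higher, and for 11 measured markers of microglia and macrophages 6.67 to 7.71 in injured and 6.31 to 6.97 in sham mice, with 5 called higher. For 6 measured of 9 markers of Schwann cells, which make the myelin of nerve roots, it was 6.01 to 6.60 in injured and 5.63 to 6.03 in sham mice, with 1 called higher. The mean of 7 measured of 8 neutrophil markers was 4.72 to 11.31 in injured and 5.25 to 11.60 in sham mice, and that of 3 measured of 7 erythroid markers 5.58 to 9.18 in injured and 5.80 to 10.49 in sham mice. Injured replicates 3 and 4 and sham replicates 3, 4 and 6 stood apart by both, and 0 markers of these 2 lists were called with limma, with 0 at an unadjusted p under 0.05. Of all probe sets, 1.91% were called higher and 1.2% lower in injured mice. The part of these cell types in the results on lineage genes was not tested. In bulk RNA, fewer cells of a type and less RNA per cell cannot be told apart.

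After injury 3 lineage genes were called higher than in sham mice, Olig1, Nkx6-2 and Trf (the iron carrier transferrin), and none of the genes of compact myelin was called. Olig1 was 4.54-fold, Trf 5.21-fold and Nkx6-2 2.65-fold higher. Calls were made with limma's moderated test on log2 signals, at a p under 0.05 after Benjamini-Hochberg adjustment across the whole array. Of the 26 measured genes 3 were called higher, where 1.91% of all 45037 probe sets were, and 0 were called lower, where 1.2% were. With unadjusted p values under 0.05, 6 genes were higher and 1 was lower. For counts at this unadjusted threshold alone, here and elsewhere, the share of all probe sets was not counted. With a one-way test on linear values 1, Olig1, was called higher and 0 lower, with 1.11% and 0.717% of all probe sets. By stage, 1 of 7 precursor genes and 2 of 19 myelin genes were called. The median difference was 0.34 log2 over the precursor genes and 0.36 over the myelin genes, against 0.01 over all probe sets. With each array centred on its median, the calls over all probe sets split into 717 higher and 694 lower, against 860 higher and 540 lower as deposited. With this centring 3 lineage genes were called higher as well, with Cldn11 in place of Nkx6-2.

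Olig1 encodes a basic helix-loop-helix factor that is needed for oligodendrocyte maturation and repair of myelin. Its log2 signal was 9.27, 9.83 and 10.34 (lowest, median and highest) in injured mice and 6.87, 7.31 and 8.82 in sham mice. The groups did not overlap, and the highest sham values were those of replicates 1 and 2. The difference was 2.18 log2 (SE 0.34, adjusted p = 0.00285), and it was 1.51, 2.56 and 2.48 within the 3 sets of arrays in the order above. Without the 4 arrays that stood apart by muscle markers it was 1.51 with an adjusted p of 0.0553, and a fit of all 12 arrays with these sets as a block gave an adjusted p of 2.98e-05. The 4 arrays include both sham arrays of replicates 3 and 4. With them left out, the set block gave 1.71 log2 (adjusted p = 0.0016). Without the 5 arrays that stood apart by neutrophil markers it was 1.69 (adjusted p = 0.0242).

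Olig2, whose product specifies the lineage and which is the chromosomal neighbour of Olig1, had log2 signals of 3.91, 4.79 and 6.74 in injured mice and 3.75, 4.06 and 5.18 in sham mice. The groups overlapped, and injured replicates 1 and 2 stood at the top. The difference was 0.85 log2 (SE 0.51, adjusted p = 0.694), with 1.52, 0.29 and 0.73 within the sets and 0.35 without the 4 arrays with muscle signal. With the set block on all arrays its SE was 0.18 and its adjusted p 0.00718. With the set block and without the 4 arrays with muscle signal the difference was 1.12 log2 (adjusted p = 0.0187). Sox10, which encodes the factor that keeps the lineage identity and acts on myelin genes, averaged 6.32 ± 0.57 in injured and 5.97 ± 0.56 log2 in sham mice. Its difference of 0.34 log2 was nearly the same within the sets (0.34, 0.35 and 0.33), and it was called with the set block (adjusted p = 0.0271) but not without a block (adjusted p = 0.968). The other 2 probe sets of Sox10 were dimmer and differed by less than 0.01 log2. Nkx2-2, whose product times differentiation, differed by 0.13 log2 (SE 0.37, adjusted p = 1).

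None of the 3 measured surface and transition markers of precursors was called with limma, with 0 past an unadjusted p under 0.05 and 0 called with the one-way test. Pdgfra, the receptor that drives precursor division, was 4.06 to 4.95 log2 in injured and 4.08 to 4.71 in sham mice, and the 95% interval of its difference was -0.28 to 0.45. Enpp6, which encodes a choline phosphodiesterase of newly formed oligodendrocytes, was 4.45 to 5.13 in injured and 4.56 to 5.08 in sham mice, with an interval of -0.37 to 0.28. Gpr17, a receptor of committed precursors, was 4.06, 4.45 and 6.07 in injured and 3.99, 4.15 and 4.87 in sham mice. Its difference was 1.09 log2 in replicates 1 and 2 but 0.24 and 0.21 in the other sets, and the adjusted p was 0.791 without a block and 0.0366 with the set block. Pdgfra, Enpp6, Gpr17, Olig2 and Nkx2-2 were all below the median signal of all probe sets on these arrays, and 2 of the 7 precursor genes were above it.

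Among the maturation genes, Nkx6-2 encodes a homeodomain factor of maturing oligodendrocytes that is also known from the ventral spinal cord. Its log2 signal was 5.27, 5.64 and 7.28 in injured mice and 4.37, 4.51 and 4.66 in sham mice. The sham values lay within 0.29 log2 of each other, and all injured values were above them, most of all those of replicates 5 and 6. The difference was 1.41 log2 (SE 0.29, adjusted p = 0.0168), or 0.90, 1.03 and 2.28 within the sets. It kept its call without the 4 arrays that stood apart by muscle markers (1.16 log2, adjusted p = 0.0449) but not with each array centred on its median (1.39 log2, adjusted p = 0.0650), nor without the 5 arrays that stood apart by neutrophil markers (1.61 log2, adjusted p = 0.0982), nor with the one-way test (adjusted p = 0.361).

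Trf encodes transferrin, the iron carrier that oligodendrocytes and choroid plexus secrete. It was 8.78, 9.92 and 10.94 log2 in injured mice and 6.72, 7.72 and 8.18 in sham mice. The groups did not overlap, and the lowest value in each group was that of replicate 5. The difference was 2.38 log2 (SE 0.40, adjusted p = 0.0045), or 2.71, 2.08 and 2.35 within the sets. Without the 4 arrays with muscle signal it was 2.41 log2 with an adjusted p of 0.061, without the 5 arrays with neutrophil signal 2.33 log2 with an adjusted p of 0.0685, and 3.22e-05 was the adjusted p with the set block on all arrays.

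**Figure D1:**
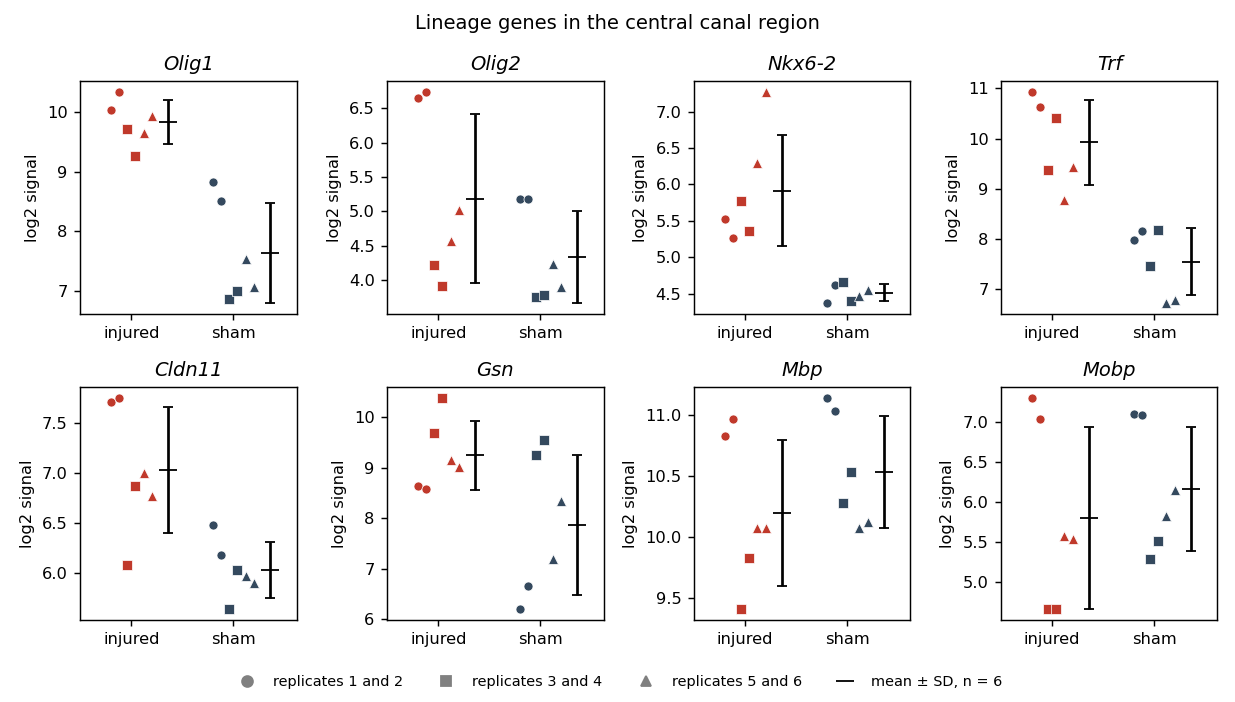
Log2 signal of 8 lineage genes on each ependymal array (vertical axes, each gene with its own range), with injured mice in red and sham mice in dark blue. Symbols mark the 3 sets of arrays and black bars the mean ± SD of 6 mice. Olig1, Nkx6-2 and Trf do not overlap between the groups. Olig1, Olig2, Mbp and Mobp are highest in replicates 1 and 2 of both groups.

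Of the 10 measured genes of myelin proteins and membranes, 0 were called in either direction with limma as deposited and without a block, 1 was higher at an unadjusted p under 0.05, and 0 were called with the one-way test. The gene nearest to a call was Cldn11, which encodes the tight junction protein that seals the layers of myelin. Its log2 signal was 6.08, 6.94 and 7.76 in injured mice and 5.64, 6.00 and 6.48 in sham mice, so that only injured replicate 3 fell into the sham range. The difference was 1.00 log2 (SE 0.26, adjusted p = 0.0612, and 0.00137 with the set block), and it became 1.19 (adjusted p = 0.0113) without injured replicate 3. It was also called with a block for the replicate number (adjusted p = 0.00250), after quantile normalisation (0.0106), with each array centred on its median (0.0187), with array weights (0.0373), with the mean of its probe sets (0.0385) and without dim probe sets (0.0399). Mbp, which encodes the basic protein that compacts the myelin membrane, was 9.41, 10.08 and 10.97 in injured mice and 10.08, 10.41 and 11.14 in sham mice. The groups overlapped widely. The difference of -0.34 log2 had a 95% interval of -0.95 to 0.28, and within the sets it was -0.19, -0.79 and -0.03.

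Mobp, another small basic myelin protein, was 4.67, 5.56 and 7.30 log2 in injured mice and 5.29, 5.99 and 7.10 in sham mice. It differed by -0.36 log2 (SE 0.50, adjusted p = 1), and within the sets by 0.08, -0.74 and -0.43, of which the second was called. The other, dimmer probe sets of Mobp differed by 0.02, -0.01 and -0.02 log2 over all arrays, and none was called. Mog and Mag, which encode glycoproteins of the outermost and the innermost myelin layer, differed by 0.42 and 0.37 log2 (adjusted p = 0.768 and 1). Cnp, the phosphodiesterase that keeps cytoplasmic channels in myelin open, was 8.69 to 9.30 in injured and 8.51 to 9.22 in sham mice. Mal, a proteolipid of membrane sorting, differed by 0.36, Ermn, a cytoskeletal protein of late oligodendrocytes, by 0.15, Opalin, a membrane glycoprotein, by -0.19 and the tetraspanin gene Tspan2 by -0.10 log2. None of these differences was called.

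The genes of myelin lipids and related metabolism differed in sign. Ugt8a, which encodes the enzyme of galactosylceramide synthesis, was 4.69, 6.17 and 7.75 log2 in injured mice and 4.68, 5.62 and 7.02 in sham mice, and its difference of 0.42 (SE 0.58) was small beside the gap between sets. Fa2h, which makes the hydroxylated fatty acids of these lipids, differed by -0.02. Aspa, which frees acetate from N-acetylaspartate for lipid synthesis, was 5.52, 6.08 and 6.33 in injured mice and 6.01, 6.55 and 7.04 in sham mice. It was lower by 0.42, 0.64 and 0.44 log2 within the sets, and its difference of -0.50 had an adjusted p of 0.33 without a block and 0.0379 with the set block. It was the 1 lineage gene called lower under the set block, where 9.77% of all probe sets were.

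The other genes of the list have roles beyond myelin. Ndrg1, a stress and growth arrest gene that Schwann cells need to keep their myelin, was 9.11, 9.70 and 10.29 log2 in injured mice and 7.91, 9.07 and 9.42 in sham mice. It differed by 0.81 (SE 0.29, adjusted p = 0.213, and 0.00181 with the set block), and by 0.87, 0.95 and 0.61 within the sets. Gsn, which encodes the actin-severing protein gelsolin, was 8.59, 9.08 and 10.39 in injured mice and 6.19, 7.77 and 9.54 in sham mice. The 3 highest sham values were those of replicates 3, 4 and 6, the sham arrays that stood apart by muscle markers. Without these and injured replicate 6 the difference was 2.62 log2 (adjusted p = 0.0191), against 1.38 (SE 0.57, adjusted p = 0.326) on all arrays. With the set block it was 2.12 log2 without those arrays (adjusted p = 0.000989) and 1.38 on all arrays (adjusted p = 0.00445). These 3 sham arrays and those of injured replicates 3 and 4, which gave the highest injured values of Gsn, were also the 5 with the highest neutrophil means. Without the 5 the difference was 2.17 log2 (adjusted p = 0.00478), and the part of neutrophils was not tested. Lims2, which encodes an adaptor of integrin signalling, differed by 0.39 (adjusted p = 0.668, and 0.00746 with the set block). Gpr37, a receptor that restrains oligodendrocyte differentiation, differed by -0.33 (adjusted p = 1).

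With the set block, 10 of the 26 genes were called higher (8.82% of all probe sets were) and 1 lower. These were Olig1, Olig2, Sox10, Gpr17, Nkx6-2, Cldn11, Trf, Ndrg1, Lims2 and Gsn, and Aspa. Without the 4 arrays that stood apart by muscle markers and with the set block, 10 were called higher and 1 lower, with 7.21% and 6.52% of all probe sets. There Sox10 and Lims2 were no longer called (adjusted p = 0.202 and 0.0694), Mog and Ugt8a were (0.70 and 0.78 log2, adjusted p = 0.0210 and 0.0222), and Aspa was again the lower one. Without the 5 arrays that stood apart by neutrophil markers, a fit chosen after seeing the data, Olig1 and Gsn were called higher (2 genes, with 2.39% of all probe sets) and 0 lower (1.44%). With a block for the replicate number 9 were higher (6.99%), after quantile normalisation 5 (2.61%), and at the unadjusted p and fold thresholds of the methods 5 (1.44%). Within replicates 1 and 2 alone 8 were called higher (4.89%) and 1 lower (4.69%), within replicates 3 and 4 Olig1, Nkx6-2 and Trf were called higher (3 genes, with 1.72% of all probe sets) and Mobp lower (3.18%), and within replicates 5 and 6 none was called higher (0.224%). Within the sets, 16 of the 26 genes were higher in injured mice in all 3 sets, against 23.5% of all probe sets, and 4 were lower in all 3, against 21.1%. The 4 were Mbp, Opalin, Aspa and Gpr37. Signals of the list differed between the sets as well. In sham mice, 23 of 26 genes were highest in replicates 1 and 2, where 71.6% of all probe sets were. The median excess of these sham replicates over the other sham sets was 0.74 log2 for the list and 0.33 for all probe sets, and for 19 of the 26 genes the excess was larger in size than the difference between injured and sham mice, as it was for 79.4% of all probe sets.

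**Figure D2:**
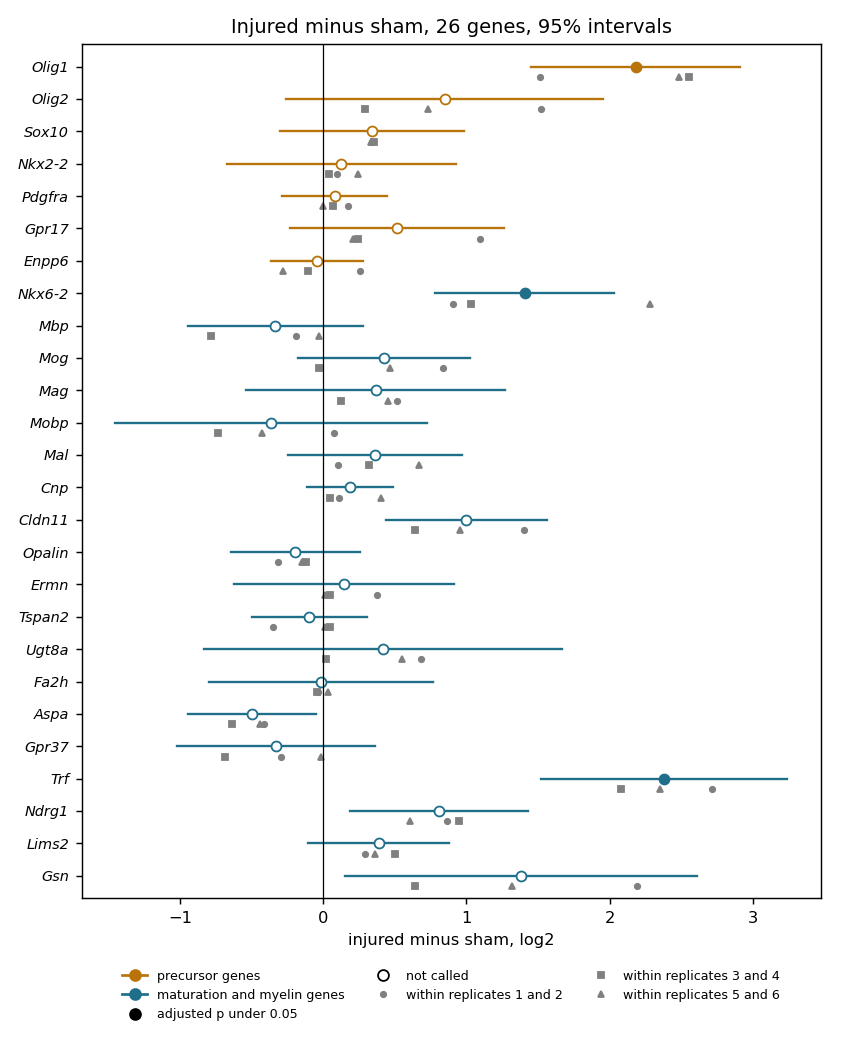
Injured minus sham difference in log2 signal (horizontal axis) for the 26 measured genes, as dots with 95% intervals from limma without a block, filled where the adjusted p was under 0.05. Small grey symbols give the difference within each set of arrays. Olig1, Nkx6-2 and Trf are the filled dots, and Mbp, Opalin, Aspa and Gpr37 lie below 0 in all 3 sets.

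Of 15 further genes of precursors, 10 were measured and 2 were called higher, Ptprz1, a receptor phosphatase of glial progenitors (0.80 log2, SE 0.17, adjusted p = 0.0236), and Matn4, a matrix protein (0.58, SE 0.12, adjusted p = 0.0168). Their median difference was -0.02 log2. Of 29 further genes of myelinating cells, 25 were measured and none was called with limma, whereas 7 were higher and 1 was lower at an unadjusted p under 0.05 and 6 were called higher and 1 lower with the set block. Those with the smallest p were Tppp, a microtubule protein of oligodendrocytes (-1.57, SE 0.44, adjusted p = 0.0813, and 0.000233 with the set block), and Apod, a lipid carrier (1.64, SE 0.50, adjusted p = 0.123, and 0.000952). Of 8 genes that restrain the lineage, Notch1, the receptor that holds precursors undifferentiated, was called higher (1.01 log2, SE 0.18, adjusted p = 0.00805). The median over all 8 was -0.11 log2. Of all probe sets, 1.91% were called higher and 1.2% lower without a block, and 8.82% and 9.77% with the set block.

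In neurospheres the precursor factors Olig1, Olig2 and Nkx2-2 fell when EGF and FGF2 were removed, and Olig1 and Olig2 rose again when the factors returned. The genes that rose on removal were Cnp, Mal, Sirt2, Aspa, Ndrg1 and Gsn, while Mbp, Mog, Mag and Mobp were not called. Of the 27 measured genes 6 were called higher w/o EF than with EF, where 9.79% of all 41155 probe sets were, and 5 were called lower, where 11.3% were. Of the 8 precursor genes 4 were lower and 0 higher (1 higher at an unadjusted p under 0.05, 0 with the one-way test, which called 4 of the 27 genes and 5.8% of all probe sets higher), with a median of -0.41 log2. Of the 19 myelin genes 6 were higher and 1 was lower, with a median of 0.11 log2, against 0.02 over all probe sets. At the thresholds of the methods 3 of the 27 genes were higher (3.08% of all probe sets). Over all probe sets 4028 were higher and 4639 lower, and with each array centred on its median 3160 were higher and 5577 lower. The 3 neurosphere comparisons share their arrays, so each gene's values are given once across the conditions.

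Olig1 had log2 signals of 10.66, 10.71, 10.66 and 10.61 with EF (mice 1 to 4), of 9.16, 8.89, 9.28 and 8.96 w/o EF and of 10.78, 10.73, 10.58 and 10.61 in re EF. All w/o EF cultures lay below all others. The fall on removal was to 0.333 of the with EF signal (-1.58 log2, SE 0.09, adjusted p = 1.46e-07), the rise on return 3.03-fold (SE 0.09 log2, adjusted p = 5.03e-07), and re EF differed from with EF by 0.02 log2 with a 95% interval of -0.18 to 0.22. Olig2 had 10.48, 10.70, 10.39 and 10.69 with EF, 8.09, 8.88, 8.18 and 8.57 w/o EF and 10.20, 10.69, 10.07 and 10.62 in re EF. Here too the w/o EF cultures stood apart. It fell by 2.14 log2 on removal (SE 0.19, adjusted p = 3.74e-06) and rose by 1.97 on return (adjusted p = 2.28e-05), and re EF minus with EF was -0.17 with an interval of -0.57 to 0.24.

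Nkx2-2 had 5.38, 5.59, 5.26 and 4.87 log2 with EF, 4.31, 4.48, 3.93 and 4.25 w/o EF and 4.69, 4.94, 4.42 and 4.96 in re EF. The re EF cultures lay between the others and overlapped both. It fell by 1.03 log2 on removal (SE 0.17, adjusted p = 0.000698). Its difference of 0.51 on return had an adjusted p of 0.0756 (0.0305 with the mouse as a block), and re EF was 0.52 log2 below with EF (adjusted p = 0.0831, and 0.0332 with the mouse as a block). Sox10 was dim in all conditions, at 3.73 to 4.04 log2, and the interval of its change on removal was -0.15 to 0.24.

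Bcas1, a marker of oligodendrocytes that begin to make myelin, had 6.76, 6.97, 6.74 and 6.98 log2 with EF, 5.84, 6.28, 5.62 and 6.27 w/o EF and 6.86, 7.09, 7.14 and 7.45 in re EF. It fell by 0.86 log2 (SE 0.16, adjusted p = 0.00172) and rose by 1.13 on return (adjusted p = 0.000538). Its other, dimmer probe set ran the other way on removal, with means of 4.83 w/o EF and 4.20 with EF (0.63 log2, called), and stayed at 4.79 in re EF, so the probe sets of Bcas1 disagree. Pdgfra had 4.01, 4.12, 3.97 and 3.74 with EF, 5.45, 5.25, 4.77 and 3.83 w/o EF and 3.91, 4.42, 4.95 and 4.20 in re EF. Mice 1, 2 and 3 were higher w/o EF than with EF and mouse 4 was nearly level. The difference of 0.86 log2 had an adjusted p of 0.0702, of 0.0443 with the mouse as a block and of 0.00268 without w/o EF replicate 4. Gpr17 and Enpp6 were not called in any comparison, with 3.86 to 5.53 and 3.17 to 3.79 log2.

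**Figure D3:**
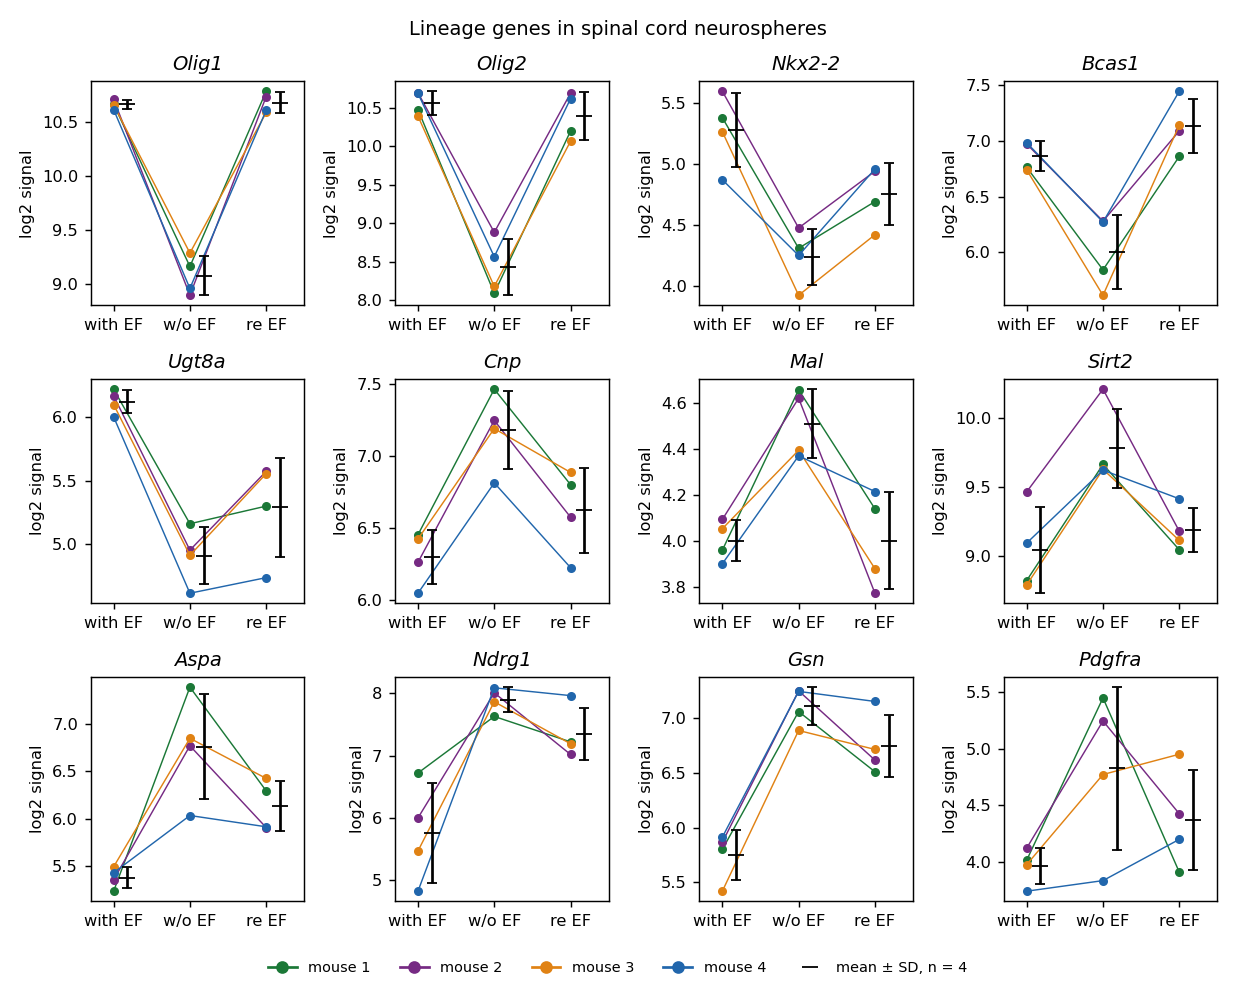
Log2 signal of 12 lineage genes (vertical axes, each gene with its own range) in neurospheres with EF, w/o EF and re EF, with a line for each of 4 mice and black bars for the mean ± SD. Olig1, Olig2 and Bcas1 dip w/o EF in every mouse, Cnp, Mal and Sirt2 peak there, and Ndrg1 and Gsn stay above their with EF values in re EF.

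Among the myelin proteins, Cnp had 6.46, 6.26, 6.43 and 6.05 log2 with EF, 7.47, 7.25, 7.19 and 6.81 w/o EF and 6.80, 6.58, 6.89 and 6.23 in re EF. It was highest w/o EF in all 4 mice. It rose by 0.88 log2 on removal (SE 0.17, adjusted p = 0.00178) and fell by 0.56 on return (SE 0.17, adjusted p = 0.0464), a call that 9 of the 12 fits without 1 array did not make. Mal had 3.96, 4.09, 4.05 and 3.90 with EF, 4.66, 4.62, 4.40 and 4.37 w/o EF and 4.14, 3.77, 3.88 and 4.22 in re EF. Its w/o EF cultures did not overlap the others, and it rose by 0.51 log2 (SE 0.11, adjusted p = 0.00505) and fell by 0.51 (adjusted p = 0.00907). Sirt2, a deacetylase abundant in myelin, had 8.82, 9.46, 8.79 and 9.09 with EF, 9.66, 10.21, 9.63 and 9.62 w/o EF and 9.04, 9.18, 9.11 and 9.41 in re EF. It rose by 0.74 log2 (SE 0.17, adjusted p = 0.00695) and fell by 0.59 on return (SE 0.17, adjusted p = 0.0388), a call lost in 6 of the 12 fits without 1 array.

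No other gene of a myelin protein was called on removal. Mbp was 3.74 to 4.12 log2 over all 12 cultures, Mag 3.14 to 3.58, Opalin 3.27 to 3.48 and Ermn 2.41 to 2.71, all below the median signal of all probe sets. Mobp was 3.93 to 4.21 and Mog 3.90 to 4.57. Mbp w/o EF minus with EF had a 95% interval of -0.07 to 0.29, Mobp of -0.14 to 0.18 and Mag of -0.23 to 0.14. Myrf, the master factor of myelin genes, was 3.85 to 4.53, and Nkx6-2 was 4.66 to 5.41 log2, and neither was called in any comparison. In all, 19 of the 27 genes were at or above the median signal (6 of 8 precursor and 13 of 19 myelin genes).

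Ugt8a was the 1 myelin gene that fell on removal. It had 6.22, 6.17, 6.10 and 6.00 log2 with EF, 5.16, 4.95, 4.91 and 4.61 w/o EF and 5.30, 5.57, 5.56 and 4.73 in re EF. With EF cultures lay above all others. It fell by 1.22 log2 (SE 0.17, adjusted p = 0.000217), and in re EF it was still 0.83 below with EF (SE 0.17, adjusted p = 0.00776). Aspa had 5.23, 5.36, 5.49 and 5.43 with EF, 7.39, 6.77, 6.85 and 6.03 w/o EF and 6.29, 5.91, 6.43 and 5.92 in re EF. It rose 2.61-fold on removal (1.38 log2, SE 0.23, adjusted p = 0.000698), and re EF was 0.76 above with EF without overlap (adjusted p = 0.0589, and 0.0338 with the mouse as a block). Fa2h was 3.60 to 4.19 and not called.

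Ndrg1 and Gsn were the myelin genes called higher both on removal and between re EF and with EF cultures. Ndrg1 had 6.72, 6.00, 5.47 and 4.82 log2 with EF, 7.63, 8.01, 7.87 and 8.09 w/o EF and 7.22, 7.02, 7.19 and 7.97 in re EF. The with EF cultures were all lower and the most spread. It rose 4.43-fold on removal (2.15 log2, SE 0.33, adjusted p = 0.000437), and re EF was 3.02-fold above with EF (SE 0.33 log2, adjusted p = 0.00818). The other, dimmer probe set of Ndrg1 also rose on removal (0.91 log2, adjusted p = 0.0151). In re EF that probe set was 0.28 log2 above with EF and not called (adjusted p = 0.645). The call between re EF and with EF thus rests on the brighter probe set. Gsn had 5.80, 5.87, 5.42 and 5.91 with EF, 7.06, 7.25, 6.89 and 7.25 w/o EF and 6.51, 6.62, 6.72 and 7.15 in re EF. It rose by 1.36 log2 (SE 0.15, adjusted p = 3.08e-05), and re EF was 1.00 above with EF (SE 0.15, adjusted p = 0.00102). Gpr37, Cldn11 and Tspan2 were not called in any neurosphere comparison.

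On return of the factors, 3 of the 27 genes were called higher in re EF than w/o EF (Olig1, Olig2 and Bcas1, with 6.96% of all probe sets) and 3 lower (Cnp, Mal and Sirt2, with 5.63%). The median difference was 0.23 log2 over the 8 precursor genes and -0.24 over the 19 myelin genes, against -0.03 over all probe sets. Over all probe sets 2863 were higher and 2315 lower, and 3785 and 1635 with each array centred on its median. Of the 27 genes 1 was lower with this centring (3.97% of all probe sets) and 1 with the one-way test (2.76%), and 0 at the thresholds of the methods (1.38%). Between re EF and with EF cultures 2 genes were higher (Ndrg1 and Gsn, with 5.04% of all probe sets) and 1 was lower (Ugt8a, with 4.75%), and the medians were -0.03 and -0.02 log2. With the mouse as a block the counts of this last comparison were 4 higher (6.29% of all probe sets) and 2 lower (6.8%), the further genes being Cnp (adjusted p = 0.0303), Aspa and Nkx2-2. With the probe sets of each gene averaged, 4 were higher (9.03%) and 2 lower (9.4%), and 2 were lower without dim probe sets (10.7%) and with array weights (6.49%). At the thresholds of the methods 1 was higher (1.68%) and 0 lower (0.656%), and with the one-way test 0 were higher (2.36%).

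**Figure D4:**
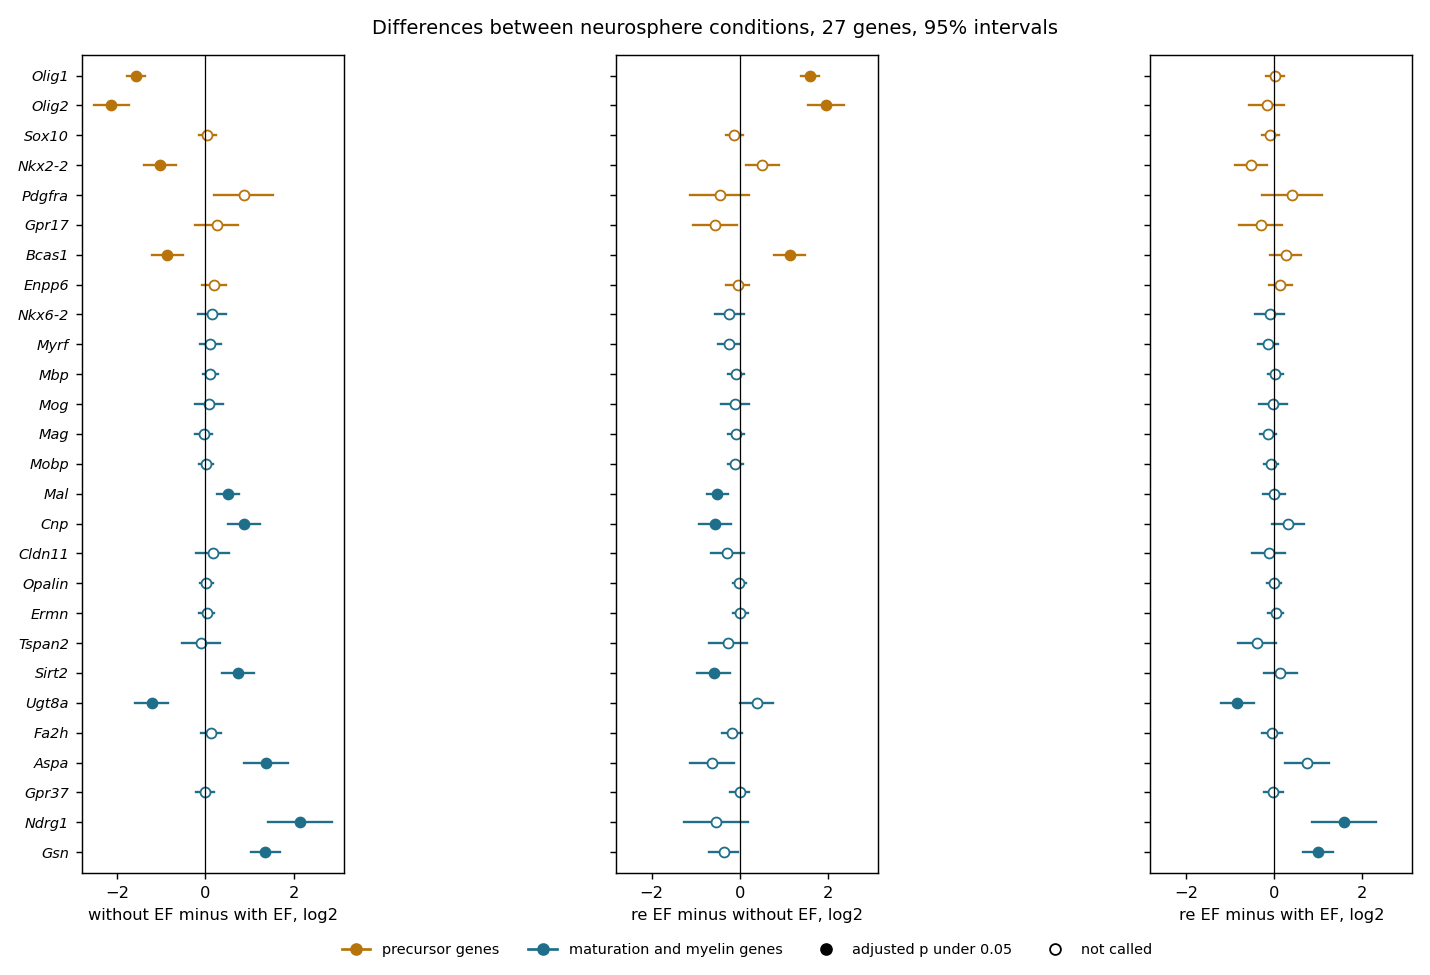
Log2 differences of the 27 genes measured in neurospheres for w/o EF minus with EF, re EF minus w/o EF and re EF minus with EF (horizontal axes, left to right), as dots with 95% intervals from limma, filled where the adjusted p was under 0.05. Precursor genes are orange and maturation and myelin genes blue, and the 3 comparisons share arrays. Olig1 and Olig2 are filled below 0 on removal, filled above 0 on return, and open near 0 in the last comparison.

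The stretches before the start sites of 4 of these genes are shown because the genes moved together in pairs, Olig2 and Nkx2-2 falling and Cnp and Aspa rising on removal of the factors. They are the 250 bases before each start, 5′ to 3′ on the strand of the gene, from RefSeq on build GRCm38.p6, whose promoters were found for 19 of the 30 genes. Capitals mark ACAAAG or AACAAT, core letters bound by SOX factors, and CAGCTG, an E-box of the kind that basic helix-loop-helix factors bind, each searched on both strands and with no overlap among the matches shown.
Olig2 (chr16:91225300-91225549, plus strand): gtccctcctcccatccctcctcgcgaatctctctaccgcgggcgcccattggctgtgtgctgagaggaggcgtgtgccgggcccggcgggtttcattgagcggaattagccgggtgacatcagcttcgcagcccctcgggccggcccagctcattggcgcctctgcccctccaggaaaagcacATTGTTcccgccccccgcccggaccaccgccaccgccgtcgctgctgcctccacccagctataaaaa
Nkx2-2 (chr2:147186403-147186652, minus strand): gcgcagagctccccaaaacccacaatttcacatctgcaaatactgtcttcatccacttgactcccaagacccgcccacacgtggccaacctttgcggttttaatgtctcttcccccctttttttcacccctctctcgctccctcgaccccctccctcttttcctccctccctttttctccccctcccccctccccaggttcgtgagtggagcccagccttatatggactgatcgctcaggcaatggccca
Cnp (chr11:100574689-100574938, plus strand): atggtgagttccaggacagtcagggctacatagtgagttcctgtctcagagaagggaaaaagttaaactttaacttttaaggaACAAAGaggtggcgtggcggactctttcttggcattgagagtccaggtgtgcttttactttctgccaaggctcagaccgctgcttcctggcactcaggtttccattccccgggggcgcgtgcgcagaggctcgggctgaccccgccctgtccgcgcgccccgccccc
Aspa (chr11:73324638-73324887, minus strand): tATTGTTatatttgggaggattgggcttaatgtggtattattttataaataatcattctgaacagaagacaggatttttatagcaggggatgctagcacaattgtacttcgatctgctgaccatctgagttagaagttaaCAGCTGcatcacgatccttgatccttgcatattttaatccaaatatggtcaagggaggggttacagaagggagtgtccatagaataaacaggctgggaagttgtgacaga
Olig2 had 1 match to AACAAT on the reverse strand 67 bases before the start, and Cnp 1 to ACAAAG 167 bases before it. Aspa had 1 to AACAAT on the reverse strand at 249 and 1 to CAGCTG at 110 bases, and Nkx2-2 had none of the 3. Among all 32851 windows of 250 bases, 16.5% held ACAAAG, 9.42% AACAAT and 13% CAGCTG. Of the 19 genes found, 5, 3 and 2 held them in any of their windows. Gsn, Mag and Tspan2 had several windows each, so these counts of genes cannot be set directly against the shares of windows. A match describes the letters of the window only.

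Of the further precursor genes 14 of 15 were measured, and 6 fell (11.3% of all probe sets did) and 1 rose (9.79%) on removal. They included Cspg4, which encodes the NG2 proteoglycan of precursors (-1.30 log2, SE 0.15, adjusted p = 3.67e-05), Sox8, a relative of Sox10 (-1.48, adjusted p = 7.22e-05), Lhfpl3 (-1.27, adjusted p = 9.82e-05) and Ptprz1 (-0.75, adjusted p = 9.06e-05). On return 2 rose (6.96% of all probe sets did) and 1 fell (5.63%). These genes were Ptprz1 (0.43, adjusted p = 0.0098), Sox8 (0.65, adjusted p = 0.0362) and C1ql1 (-1.93, adjusted p = 0.000607). Cspg4 did not follow Olig1 and Olig2 back, with a difference of 0.20 on return (SE 0.15, adjusted p = 0.487) and of -1.10 between re EF and with EF (adjusted p = 0.000439). Lhfpl3 (-1.45, adjusted p = 0.000118), Cacng4 (-1.01, adjusted p = 0.000338) and Sox6 (-0.55, adjusted p = 0.00453) were also lower in re EF than with EF, among 6 genes called lower (4.75% of all probe sets were).

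Of the further myelin genes 26 of 29 were measured. On removal 7 rose (9.79% of all probe sets did) and 2 fell (11.3%). Among these genes were Nfasc, an adhesion protein of the axon and its myelin (1.65 log2, adjusted p = 1.52e-06), the channel gene Tmem63a (1.17, adjusted p = 0.000582) and Tppp (1.00, adjusted p = 0.000708). Anln fell by 3.56 log2 (SE 0.24, adjusted p = 3.99e-07) and rose by 3.78 on return (adjusted p = 9.08e-07). It encodes anillin, which is found in myelin and is also a scaffold of dividing cells. On return 3 rose (6.96% of all probe sets did) and 2 fell (5.63%), with Tppp at -1.35 (adjusted p = 0.000177), Elovl7, an enzyme of fatty acid elongation, at 0.78 (adjusted p = 0.0279) and Tmeff2 at 0.39 (adjusted p = 0.0482). Between re EF and with EF 6 were higher (5.04% of all probe sets were) and 1 was lower (4.75%), led by Nfasc (1.69, adjusted p = 6.14e-06), Tmeff2 (1.07, adjusted p = 0.0001), Tmem63a (1.09, adjusted p = 0.00251) and the connexin gene Gjc3 (-0.76, adjusted p = 0.00323).

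Of the 8 genes that restrain the lineage, 2 rose (9.79% of all probe sets did) and 3 fell (11.3%) on removal. Id4 and Id2, which encode inhibitors of basic helix-loop-helix factors, rose by 3.59 log2 (SE 0.18, adjusted p = 3.9e-08) and 1.67 (SE 0.32, adjusted p = 0.00195). Jag1, a Notch ligand, fell by 2.09 (SE 0.16, adjusted p = 1.39e-06) and Hes1, a Notch target, by 1.05 (SE 0.10, adjusted p = 1.1e-05). On return 2 rose (6.96% of all probe sets did) and 3 fell (5.63%), with Id4 at -3.07 (adjusted p = 5.23e-07), Jag1 at 1.98 (adjusted p = 7.26e-06), Hes1 at 0.50 (adjusted p = 0.00666) and Id2 at -1.16 (adjusted p = 0.0311). Between re EF and with EF Hes5, another Notch target, was lower by 1.00 (adjusted p = 0.000314) and Hes1 by 0.55 (adjusted p = 0.00433). Markers of other cells moved along with the factors as well. The mean of 12 astrocyte markers was 6.87 to 7.01 log2 per array with EF, 7.67 to 8.04 w/o EF and 7.32 to 7.49 in re EF, and that of 11 measured ependymal markers was 4.23 to 4.36 with EF, 5.16 to 5.24 w/o EF and 4.42 to 4.59 in re EF. The mean of 11 measured markers of microglia and macrophages was 3.64 to 3.93 and that of 12 muscle markers 3.78 to 4.10 over all 12 arrays. The part of these cell types in the neurosphere results was not tested.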

How the data were processed

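Total RNA of 24 samples was hybridised to Affymetrix arrays of a different type for each tissue. The authors' deposited values are log2 signals, summarised by robust multi-array averaging (RMA) in Affymetrix Expression Console 1.2.1, for each tissue apart, and tests stayed within a tissue. After 104 (ependyma) and 190 (neurospheres) control probe sets were left out, limma 3.58.1 in R 4.3.3 was fitted to all 45037 and 41155 probe sets with no block, Benjamini-Hochberg adjustment and a call at an adjusted p under 0.05, two-sided. Neurosphere conditions shared 1 fit. The number of arrays limits the precision. The limma test was also run on simulated arrays that varied independently, without sets of arrays or shared mice, so that check does not cover these. Python 3.11.15 was used for summaries.

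Members and lists were chosen with earlier results of these data known. All 30 members were named. Of other lists, up to 4 called genes of smallest p were named per comparison, or 2 where none was called, and Cspg4.

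The neurosphere labels give the same mouse numbers in each condition, and same-numbered arrays deviated together (correlations of 0.312 to 0.391, 0.275 to 0.359 and 0.160 to 0.306 for w/o EF and with EF, re EF and w/o EF, and re EF and with EF). Alternatives were quantile normalisation, centring of arrays, a filter on dim probe sets, array weights, the mean over all probe sets of a gene, the thresholds of the methods, a one-way test on linear values, blocks, fits without the arrays with muscle signal or, chosen after seeing the data, with neutrophil signal, and fits without 1 array.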

Additional observations from a re-analysis of the deposited data

Results flagged for a closer look

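Of 133 groups of 4 or 6 values of lineage genes, 3 held a value far from the others by Dixon's criterion at 95%, which chance alone gives in about 1 group in 20. All 3 were in neurospheres. Myrf, the gene of the master factor of myelin genes, was 4.53 log2 in w/o EF replicate 2, against 4.02 to 4.07 in the other w/o EF cultures. Myrf was also 3.85 in re EF replicate 4, against 3.93 to 3.95 in the other re EF cultures. Sirt2, the deacetylase gene, was 10.21 in w/o EF replicate 2, against 9.62 to 9.66 in the other w/o EF cultures. Without that array the call of Sirt2 on return of the factors was lost (-0.45 log2, adjusted p = 0.0945).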

How the results depend on the processing

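For single genes, 2360 values kept their side of the threshold, 73 gained a call, 45 lost it and 0 values with a call turned. Uncalled values among the 2360 could change sign. Without the arrays with muscle signal and without a block, Ugt8a went from 0.42 to -0.16 log2 and Nkx2-2 from 0.13 to -0.28 log2. With the set block and the same arrays left out, Ugt8a was 0.78 and Nkx2-2 0.09 log2. Of the 26 genes in injured against sham mice, 3 were called higher, where 1.91% of all probe sets were. The count was 5 with quantile normalisation (2.61% of all probe sets) and 5 with the thresholds of the methods (1.44%). It was 9 with the replicate block (6.99%) and 10 with the set block (8.82%). With the set block and without the arrays with muscle signal it was 10 (7.21%). It was 8 within replicates 1 and 2 (4.89%), 0 within replicates 5 and 6 (0.224%) and 1 with the one-way test (1.11%). Against 0 called lower, 1 was lower with the set block, 1 with the set block and without the arrays with muscle signal, 1 within replicates 1 and 2 and 1 within replicates 3 and 4. On removal, 6 genes were called higher and 3 with the thresholds of the methods. On return, 3 were called lower, and 1 with centring, 0 with the thresholds of the methods, 1 with the one-way test and 1 to 5 without 1 array. Between re EF and with EF, 2 were called higher, and 4 with the mean of all probe sets, 1 with the thresholds of the methods, 4 with the replicate block and 0 with the one-way test. There 1 was called lower, and 2 without dim probe sets, 2 with array weights, 2 with the mean of all probe sets, 0 with the thresholds of the methods, 2 with the replicate block and 1 to 2 without 1 array (2 without with EF replicate 4). With the mouse as a replicate block the calls of Pdgfra on removal, Nkx2-2 on return and Nkx2-2, Aspa and Cnp between re EF and with EF were gained, and no other call of a single gene changed in neurospheres. The cause of these changes was not tested.

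In ependymal arrays same-numbered samples of different mice also deviated together (correlations of 0.425 to 0.786), and after the set means were removed the correlations were -0.575 to 0.105. Nothing in the sources used here says what the sets are. Leaving out the arrays with muscle signal, or those with neutrophil signal (2 genes called higher, 0 lower, a fit chosen after seeing the data), leaves no sham array of replicates 3 and 4. Background was not measured, so genes below the median signal may lie near it, and small changes there may not be resolved. With 4 or 6 arrays a group, a gene that was not called is not shown to be equal.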
